A study of Mus musculus with 6 samples.

Results

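The genes described here are a set of 20 genes of the Atf4 pathway and the genes of the tRNA synthetases. They were read in a mouse blood progenitor clone after removal of the doxycycline that drives its Evi1 transgene. The Atf4 genes were chosen by name. The synthetases were genes with a symbol made of a capital amino acid letter and ars, with or without 1 or 2. The letters E, F and P were not used, and Eprs, Farsa and Farsb were added by name. Ears2, Fars2, Pars2 and Tarsl2 lie outside this naming rule and are counted with the partners of the synthetases below. A gene was read from probe sets annotated with 1 gene symbol, and where it had several, from the one with the highest mean over the arrays. In this way 19 of the 20 Atf4 genes and 32 synthetases were measured, 51 of 18193 genes in all. Pycr1 and Dars had no such probe set and were not analysed here.

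The withdrawal group comprised 3 arrays of myeloid clone C6 taken 48 h after doxycycline was removed, and the dox group 3 arrays of the same clone under 1 µg/ml doxycycline. The clone is 1 line of haematopoietic progenitor cells on a Rosa26rtTA C57BL/6J background, in which doxycycline drives a codon-optimized murine Evi1 from the lentiviral vector pRRL.TET.Evi1.IRES.EGFP. All cells of both groups carried the vector and the reverse transactivator. All were grown with mouse stem cell factor at 50 ng/ml, mouse interleukin 3 at 20 ng/ml, human Flt3 ligand at 50 ng/ml and human interleukin 11 at 50 ng/ml. Evi1 is a zinc finger transcription factor on which the clone is said to depend. The groups differ in doxycycline itself as well as in what drives the transgene. Without arrays of cells lacking the transgene, effects of the drug and of Evi1 loss cannot be told apart. The part of the drug in the differences was not tested.

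Atf4 is a transcription factor of the basic leucine zipper family at the centre of the integrated stress response. When amino acids, haem or protein folding fail, kinases phosphorylate the initiation factor eIF2, most translation slows and the Atf4 mRNA is translated more. Atf4 then binds, often together with a C/EBP protein, to composite elements near genes that make, import and charge amino acids. tRNA synthetases join each amino acid to its tRNA, in the cytosol or in mitochondria, and many of the cytosolic ones are often listed among Atf4 targets. Because Atf4 is regulated largely in translation, mRNA arrays read its transcript and its targets but not its protein.

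Letters that match the composite element occur in the promoter windows of several of these genes. The letters TGATGNAA were searched on both strands (on the opposite strand they read TTNCATCA, and no overlap with another motif was considered) in RefSeq windows that run from 250 bases before to 50 bases after each annotated start, mouse build GRCm38.p6. Windows were found for 41 of the 51 genes. The motif was present in 4 of 17 Atf4 genes and 5 of 24 synthetases, against 4.51% of all 27025 genes with a window. Counted by window, it was in 4 of 20 windows of Atf4 genes and 5 of 25 of synthetases (20.0% each), against 3.97% of 32851 windows. The 60-base stretches below show the match in capitals for the 6 genes where it lay before the start, so that a reader can set the element beside their values. In Trib3, Yars and Iars it lay past the start and is not printed.
Asns, chr6:7693210-7693269, minus strand: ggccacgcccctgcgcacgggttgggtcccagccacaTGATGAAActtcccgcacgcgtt
Chac1, chr2:119351023-119351082, plus strand: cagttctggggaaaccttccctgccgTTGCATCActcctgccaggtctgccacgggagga
Vldlr, chr19:27216794-27216853, plus strand: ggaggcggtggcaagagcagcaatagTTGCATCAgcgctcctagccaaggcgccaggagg
Aars, chr8:111033704-111033763, plus strand: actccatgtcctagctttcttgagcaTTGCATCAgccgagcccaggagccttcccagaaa
Tars, chr15:11399659-11399718, minus strand: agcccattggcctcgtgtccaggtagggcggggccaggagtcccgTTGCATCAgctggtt
Gars, chr6:55037941-55038000, plus strand: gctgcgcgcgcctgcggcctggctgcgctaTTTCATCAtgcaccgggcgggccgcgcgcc
A match, called the element below, describes letters only, and binding of Atf4 to it was not tested. Its absence says only that these letters are not in this window.

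All values are deposited log2 expression values, in which a step of 1 is a doubling, and each difference is withdrawal minus dox with its standard error from limma over 3 arrays per group. A gene is said to have risen or fallen where its limma p, adjusted by Benjamini-Hochberg over all 45037 probe sets, was below 0.05. Over all genes 218 rose (1.2%) and 286 fell (1.57%), and the median difference was 0.01. The arrays had close medians, from 5.22 to 5.27, and their number limits the precision. No label states that the replicates of a group were separate cultures. The p-values therefore cover only array-to-array spread, possibly a technical one. On a second principal component with 31.9% of the variance, withdrawal replicate 3 (-22.99) and dox replicate 1 (-11.43) stood apart from the other arrays, which scored from 2.10 to 12.45. The 3 probe sets of Mecom, the gene of Evi1, were all dim and none was called (limma adjusted p from 0.615 to 0.881). Probe sets to the natural sequence may not read a codon-optimized transgene, so they do not check the labels. The progenitor genes Ptprc, Myb, Spi1, Runx1, Gata2, Lmo2, Kit and Cd34 were all above the median level of the probe sets, 5.24. All 3 B cell markers and 5 of 6 fibroblast markers lay below it, but all 4 T cell markers (means from 5.96 to 6.11) and 2 of 4 endothelial markers lay above it, so a level above the median does not by itself show a cell type.

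After withdrawal 1 of the 19 measured Atf4 genes rose and none fell, and none of the 32 synthetases passed in either direction, against 2.77% of all genes that passed in either direction. The gene that rose was Atf5, by 1.40-fold. At an unadjusted p below 0.05, 8 Atf4 genes and 5 synthetases differed, which is 42.1% and 15.6% of them against 16.3% of all genes and 21.8% of genes above the median level. The median difference was 0.03 over the Atf4 genes and -0.04 over the synthetases. On the 95% interval of each difference, which is not adjusted for the number of genes, a doubling or halving lay outside for all 51 genes, as it did for 18045 of 18193 genes.

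**Figure D1:**
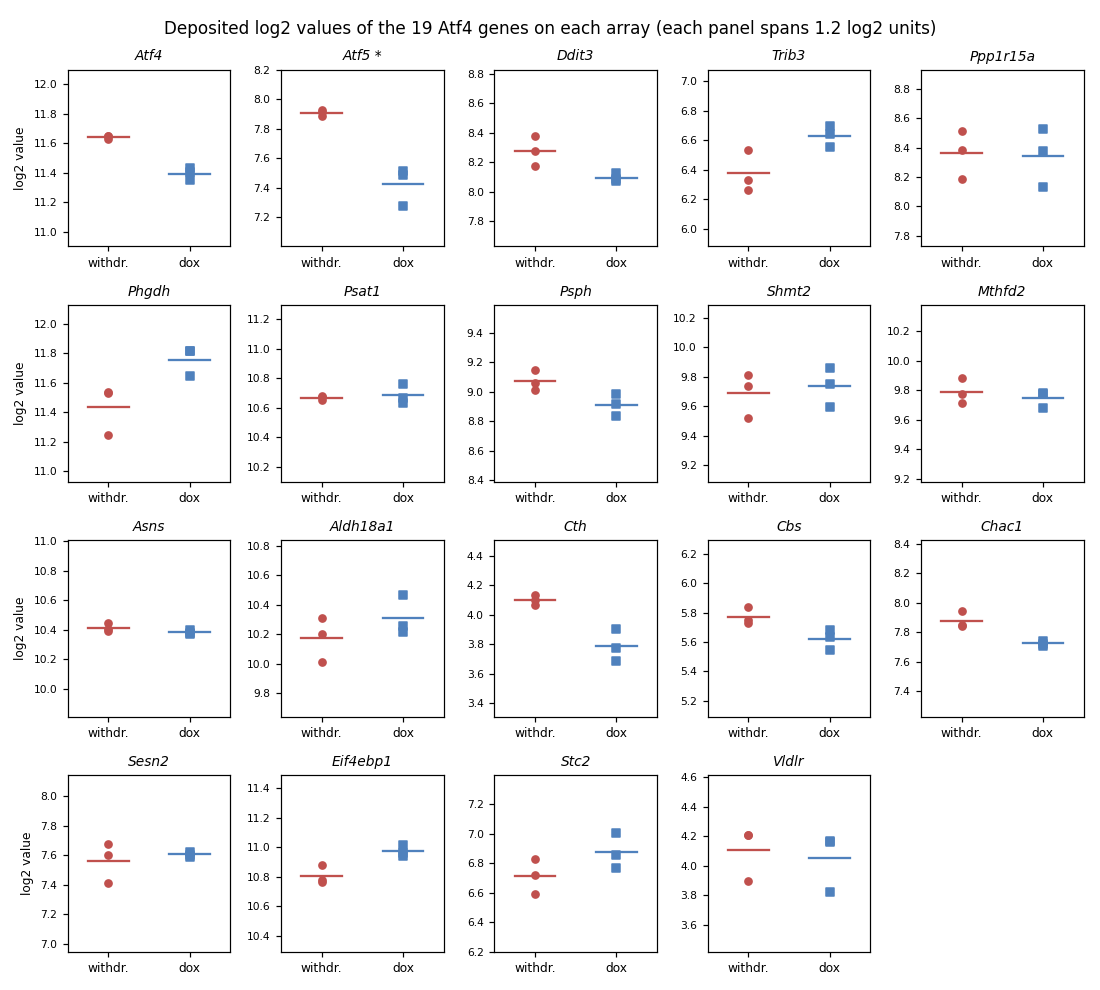
Each panel shows 1 Atf4 gene, with the deposited log2 value of the 3 withdrawal arrays (circles) and the 3 dox arrays (squares) and a bar at each group mean; every panel spans 1.2 log2 units and a star marks the gene with an adjusted p below 0.05. Atf5 and Atf4 lie higher on all withdrawal arrays than on all dox arrays, Asns and Psat1 differ little, and Phgdh and Trib3 lie lower.

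The regulators were Atf4 itself, Atf5, Ddit3, Trib3 and Ppp1r15a. Atf5, a close relative of Atf4 that is also translated more under stress, had 7.93, 7.92 and 7.89 after withdrawal, against 7.28, 7.52 and 7.49 under dox. The withdrawal arrays were nearly equal and all above the highest dox array, and dox replicate 1 was the lowest of its group. The difference was 0.48 ± 0.08 (95% interval 0.29 to 0.67, limma adjusted p = 0.0320). This was the largest rise of the group and the only one past the threshold, yet it did not pass when any 1 of the 6 arrays was left out, with differences from 0.41 to 0.53 and adjusted p from 0.0723 to 0.131. Without both arrays that stood apart it was 0.42 (adjusted p = 0.147). Over all alternatives tried, its adjusted p ran from 0.00334 to 0.147 and its sign did not change.

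Atf4 had 11.65, 11.65 and 11.63 after withdrawal, against 11.35, 11.40 and 11.43 under dox. The groups did not overlap, and the spread within the withdrawal arrays was small. The difference of 0.25 ± 0.06 (limma adjusted p = 0.111) did not pass over all probe sets. It passed with trend and robust options (adjusted p = 0.00234) and when only probe sets above the median level were tested (adjusted p = 0.0260), and its adjusted p ran from 0.00234 to 0.319 over the alternatives. A second bright Atf4 probe set, which can cross-hybridise, differed by 0.13 ± 0.09 with overlapping groups, and a dim one by 0.17 ± 0.06.

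Ddit3 encodes CHOP, a C/EBP-related factor induced downstream of Atf4. It had 8.18, 8.27 and 8.38 after withdrawal, against 8.08, 8.08 and 8.12 under dox. The groups lay apart by a narrow margin, and the difference of 0.18 ± 0.07 did not pass (limma adjusted p = 0.320). A dimmer Ddit3 probe set differed by 0.03 ± 0.08 with overlapping groups. Trib3 encodes a pseudokinase that is itself an Atf4 target and restrains Atf4. Its values were 6.26, 6.33 and 6.53 after withdrawal, against 6.70, 6.64 and 6.56 under dox. The groups did not overlap, in the direction opposite to Atf4, Atf5 and Ddit3, and the difference of -0.26 ± 0.09 did not pass (limma adjusted p = 0.242). Its other probe set differed by -0.07 ± 0.08. Ppp1r15a encodes GADD34, the subunit that directs a phosphatase to eIF2 and ends the response. It spread widely within both groups, from 8.19 to 8.51 after withdrawal and from 8.13 to 8.52 under dox, and differed by 0.02 ± 0.12.

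**Figure D2:**
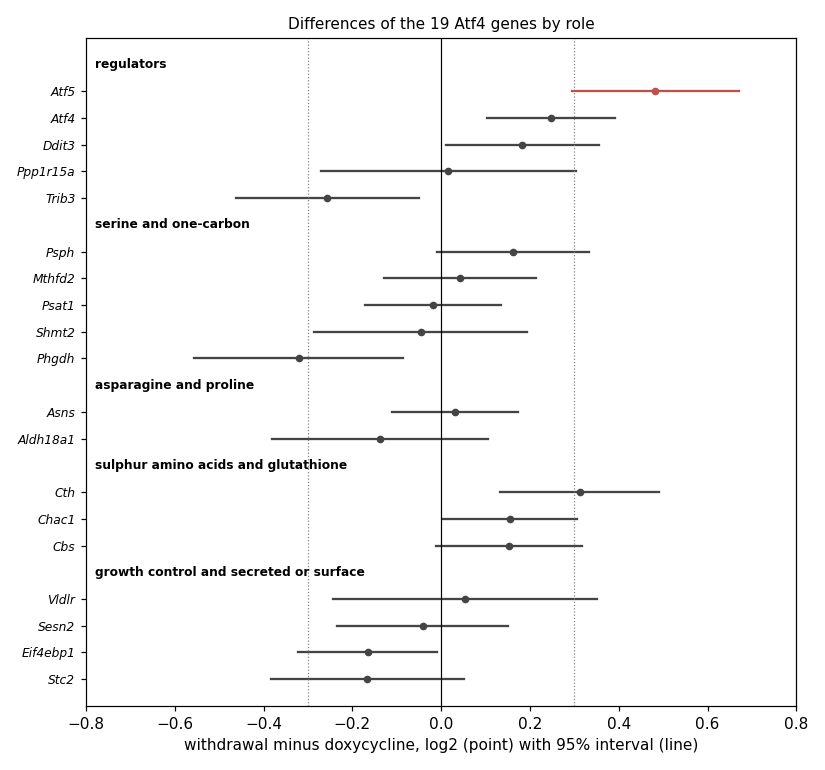
Points give the withdrawal minus dox difference of each Atf4 gene on the log2 scale and lines its 95% interval, grouped by role, with dotted lines at 0.3 in either direction and the gene past the threshold in red. Atf5 at 0.48 stands highest and Phgdh at -0.32 lowest, and the enzymes lie on both sides of 0.

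The enzymes and effectors, 14 of the 19 genes, had a median difference of 0.01, with 7 above and 7 below 0, and none passed. In the serine and one-carbon route, Phgdh, Psat1 and Psph make serine from a glycolytic intermediate, and Shmt2 and Mthfd2 pass its carbon to folate in mitochondria. Phgdh, the first enzyme, had 11.53, 11.53 and 11.24 after withdrawal, against 11.64, 11.82 and 11.81 under dox. The groups did not overlap, and withdrawal replicate 3 was clearly the lowest array. The difference was -0.32 ± 0.10 (limma adjusted p = 0.200), and all 4 Phgdh probe sets, each of a type that can cross-hybridise, differed in the same direction, from -0.20 to -0.32. It passed with trend and robust options (adjusted p = 0.0309) and in no other alternative.

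Psph, the last step, was at 9.06, 9.15 and 9.01 after withdrawal, against 8.84, 8.92 and 8.99 under dox. The groups were apart by a small margin in the opposite direction to Phgdh, and the difference of 0.16 ± 0.07 did not pass (limma adjusted p = 0.382). Psat1, the middle step, differed by -0.02 ± 0.07 (95% interval -0.17 to 0.13), Mthfd2 by 0.04 ± 0.07 (-0.13 to 0.21) and Shmt2 by -0.05 ± 0.10 (-0.29 to 0.19). For these 3 genes a difference of 0.3 on the log2 scale, which is 1.23-fold, lay outside the interval. Whether the steps of the route differ from each other was not tested.

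Asns, which makes asparagine from aspartate and glutamine, is a classical Atf4 target with the element shown above. It was at 10.41, 10.45 and 10.39 after withdrawal, against 10.38, 10.40 and 10.37 under dox. All 6 arrays lay within a narrow range and the groups overlapped. The difference was 0.03 ± 0.06 (95% interval -0.11 to 0.17), and the other Asns probe set, of a type that can cross-hybridise, gave -0.03 ± 0.07. Aldh18a1, which starts proline synthesis from glutamate, differed by -0.14 ± 0.10, with overlapping groups and all 5 of its probe sets between -0.04 and -0.14.

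The sulphur and glutathione genes all differed upward, without a call. Cth, which releases cysteine from cystathionine, had 4.06, 4.13 and 4.10 after withdrawal, against 3.77, 3.68 and 3.91 under dox. These values are below the median level, where RMA compresses differences, and the groups did not overlap. Its difference of 0.31 ± 0.08 did not pass (limma adjusted p = 0.107). Cbs, the enzyme before Cth, differed by 0.15 ± 0.07, also with groups that did not overlap. Chac1, which degrades glutathione, carries the element shown above and had 7.95, 7.84 and 7.84 after withdrawal, against 7.71, 7.74 and 7.72 under dox. Its groups were clear of each other, and the difference of 0.15 ± 0.06 did not pass (limma adjusted p = 0.338).

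Of the growth control genes and those of secreted or surface proteins, none passed. Eif4ebp1 encodes 4E-BP, which holds back cap-dependent translation. It had 10.88, 10.76 and 10.78 after withdrawal, against 11.01, 10.96 and 10.94 under dox. The groups did not overlap, but the difference of -0.17 ± 0.07 did not pass (limma adjusted p = 0.319), and the other bright probe set gave -0.05 ± 0.07. Stc2, a secreted glycoprotein, differed by -0.17 ± 0.09 with overlapping groups. A dimmer probe set of it read 6.01, 5.68 and 6.19 after withdrawal, against 6.44, 6.45 and 6.52 under dox, a difference of -0.51 ± 0.13 that did not pass either (limma adjusted p = 0.108). Sesn2, which represses mTORC1 when leucine is short, differed by -0.04 ± 0.08. Vldlr, a lipoprotein receptor gene with the element shown above, was dim and differed by 0.05 ± 0.13.

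Counted by separation of the arrays, 10 of 19 Atf4 genes had groups that did not overlap, 7 higher and 3 lower. Over all genes 24.7% did not overlap, 12.4% higher and 12.2% lower. Because 17 of the 19 lie above the median level, the 33.7% of genes above that level is the nearer comparison (15.9% higher and 17.7% lower). The 7 higher genes were Atf5, Cth, Atf4, Ddit3, Psph, Chac1 and Cbs, and the 3 lower ones Eif4ebp1, Trib3 and Phgdh. Their differences were small, from 0.15 to 0.48 upward and from -0.17 to -0.32 downward.

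Taken without sign, the differences of the synthetases were smaller than those of the Atf4 genes and near those of all genes. Over the 32 genes the differences ran from -0.29 to 0.17, with a median absolute difference of 0.08. It was 0.15 for the Atf4 genes, 0.09 for all genes and 0.09 for genes above the median level. The interval lay within 0.3 on both sides for 21 of 32 synthetases (65.6%) and for 5 of 19 Atf4 genes. It did so for 47.1% of all genes and for 52.4% of genes above the median level. In 5 synthetases the groups did not overlap, 1 higher and 4 lower. That is 15.6% of the list, against 24.7% of all genes and, since 31 of the 32 lie above the median level, 33.7% of genes above it.

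**Figure D3:**
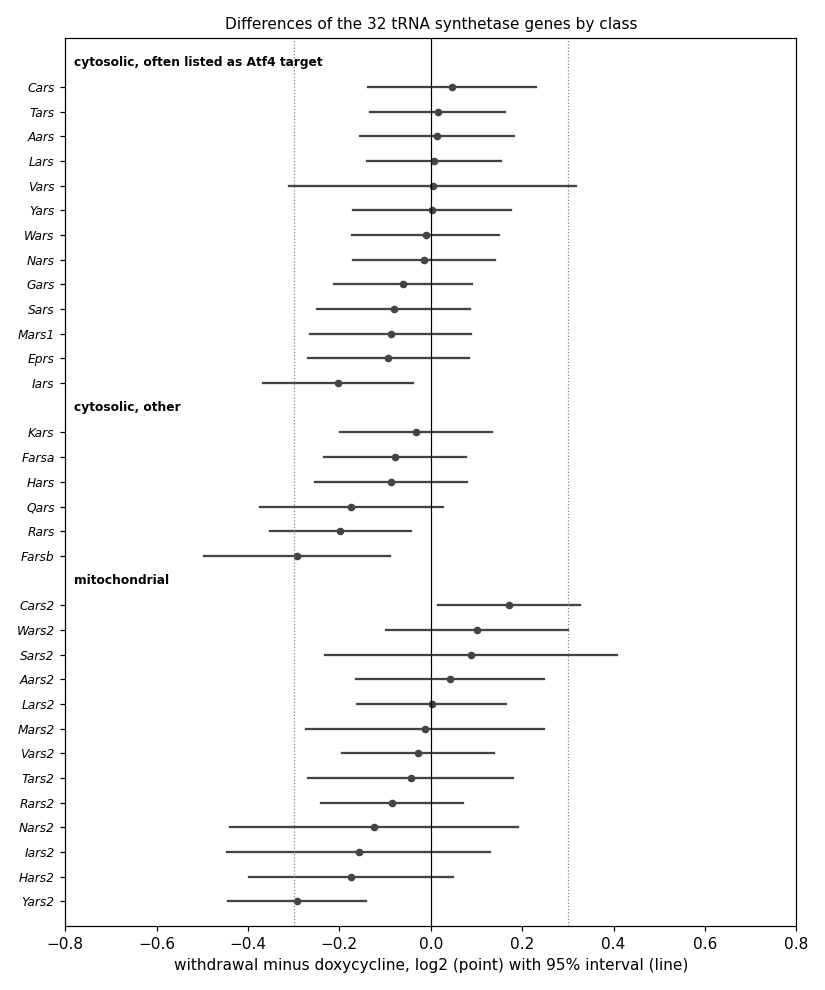
Points give the withdrawal minus dox difference of each tRNA synthetase gene on the log2 scale and lines its 95% interval, by class, with dotted lines at 0.3 in either direction. The cytosolic enzymes often listed as Atf4 targets cluster around 0 except Iars at -0.20, and Farsb and Yars2 lie lowest at -0.29.

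The 13 cytosolic synthetases often listed as Atf4 targets had a median difference of -0.01, the narrowest of the classes, and for 11 of them the interval lay within 0.3. Aars, which charges alanine and carries the element, had 10.28, 10.30 and 10.17 after withdrawal, against 10.16, 10.30 and 10.24 under dox. Tars, the threonine enzyme, also with the element, had 10.26, 10.25 and 10.32 after withdrawal, against 10.27, 10.22 and 10.30 under dox. In both the groups overlapped, and both differed by 0.01, with standard errors of 0.07 and 0.06. Nars, the asparagine enzyme, differed by -0.01 ± 0.07 (95% interval -0.17 to 0.14). Gars, which charges glycine in both compartments and has the element, differed by -0.06 ± 0.07, Lars, the leucine enzyme, by 0.01 ± 0.06 and Yars, the tyrosine enzyme, by 0.003 ± 0.07. Vars, the valine enzyme, differed by 0.004 but had a wide standard error of 0.13, so its interval ran from -0.31 to 0.32.

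Iars, the isoleucine enzyme, was the exception within that class, with 10.25, 10.20 and 10.09 after withdrawal, against 10.37, 10.43 and 10.34 under dox. The groups did not overlap, and the difference of -0.20 ± 0.07 did not pass (limma adjusted p = 0.245). A second Iars probe set gave -0.06 ± 0.07.

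The other 6 cytosolic synthetases, Kars, Farsa, Hars, Qars, Rars and Farsb, all differed below 0, with a median of -0.13. All 6 lie above the median level, where 5410 of 11143 genes differed below 0. Farsb, a subunit of the phenylalanine enzyme, had 10.41, 10.27 and 10.13 after withdrawal, against 10.50, 10.59 and 10.60 under dox. Rars, the arginine enzyme, had 9.76, 9.81 and 9.89 after withdrawal, against 9.996, 10.04 and 10.03 under dox. In both genes all withdrawal arrays lay below all dox arrays. The differences of -0.29 ± 0.09 for Farsb (limma adjusted p = 0.178) and -0.20 ± 0.07 for Rars (limma adjusted p = 0.225) did not pass. All 4 Farsb probe sets differed below 0, from -0.14 to -0.29. Farsa, the partner subunit of Farsb, differed by -0.08 ± 0.07, and the dimmest of its 3 other probe sets by -0.57 ± 0.12 (limma adjusted p = 0.0610). Qars, the glutamine enzyme, differed by -0.17 ± 0.09 with overlapping groups. Of the 7 measured synthetases that belong to the multi-synthetase complex (Eprs, Iars, Lars, Mars1, Qars, Rars and Kars), 6 differed below 0, with a median of -0.09. Whether the genes of either list moved together was not tested.

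The 13 mitochondrial synthetases under the naming rule, which leaves out Ears2, Fars2 and Pars2, lay on both sides of 0, with a median of -0.03. Yars2, the mitochondrial tyrosine enzyme, came closest to the threshold of all synthetases on the probe sets chosen by the rule. It had 8.17, 8.16 and 8.09 after withdrawal, against 8.39, 8.43 and 8.47 under dox. The groups were well apart, and a second probe set that can cross-hybridise gave a like difference, -0.30 ± 0.08 beside -0.29 ± 0.07 (limma adjusted p = 0.0784). It passed in 4 of 14 alternatives, and its adjusted p ran from 0.0145 to 0.256. Cars2, the cysteine enzyme of mitochondria, was the synthetase with the largest upward difference, 0.17 ± 0.07 (limma adjusted p = 0.302). Its values were 8.54, 8.47 and 8.40 after withdrawal, against 8.28, 8.31 and 8.31 under dox, and its other probe sets gave 0.18 each. Hars2, the histidine enzyme, differed by -0.18 ± 0.10 with overlapping groups.

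Read against the promoter sequences, the 9 genes with the element differed by -0.26 (Trib3) to 0.15 (Chac1), with a median of 0.01. The 32 genes with a window but no match differed by -0.32 (Phgdh) to 0.48 (Atf5), with a median of -0.04. None of the genes with the element passed, and Atf5, which rose, has no match in its 2 windows.

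The arrays that stood apart were also often the lowest over the synthetases, and withdrawal replicate 3 over the Atf4 genes. Withdrawal replicate 3 was the lowest of its group for 14 of 19 Atf4 genes (73.7%) and 24 of 32 synthetases (75%), against 40.0% of all genes. Dox replicate 1 was the lowest of its group for 22 of 32 synthetases (68.8%) but only 9 of 19 Atf4 genes (47.4%), against 41.8% of all genes. The median deviation over the synthetases was -0.07 on withdrawal replicate 3 and -0.04 on dox replicate 1. Without both arrays the median difference was 0.03 over the Atf4 genes and -0.03 over the synthetases, and no gene of either list passed. The part of these arrays in the standard errors was not tested.

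**Figure D4:**
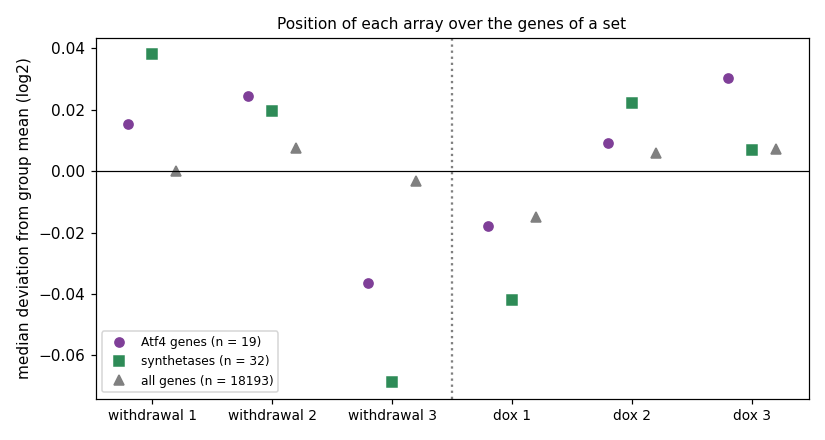
The median deviation of each array from its own group's mean is shown on the log2 scale, over the Atf4 genes (circles), the synthetases (squares) and all genes (triangles), with withdrawal arrays on the left. Withdrawal replicate 3 at -0.07 and dox replicate 1 at -0.04 are lowest for the synthetases, while all genes stay near 0.

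No gene upstream of Atf4 passed. Of 15 measured genes of the eIF2 kinases, their regulators and the eIF2 and eIF2B subunits, the median difference was 0.02. Eif2ak2, the kinase PKR that is induced by interferon, differed by -0.22 ± 0.08, and Eif2ak4, the kinase GCN2 that senses uncharged tRNA, by -0.16 ± 0.07. Eif2ak3, the kinase PERK of the endoplasmic reticulum, differed by -0.02 ± 0.07. Eif2ak1, the kinase HRI that responds to a lack of haem, had the largest upward difference of the list, 0.14 ± 0.12, with overlapping groups. A further list of 10 genes held partners of the synthetases together with Ears2, Fars2, Pars2 and Tarsl2, which the naming rule left out. None of them passed. The scaffold genes Aimp1 and Aimp2 each differed by -0.12 ± 0.07, and Xpot, which exports tRNA from the nucleus, by -0.05 ± 0.06. Sepsecs, which makes selenocysteine on its tRNA, differed by -0.30 ± 0.15 and Pars2, the mitochondrial proline enzyme, by -0.14 ± 0.07.

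Among 8 bZIP partners and relatives of Atf4, 1 rose (12.5%), against 1.2% of all genes and 1.89% of genes above the median level. Cebpa, a C/EBP factor that drives granulocyte development, had 9.97, 9.98 and 9.93 after withdrawal, against 9.27, 9.26 and 9.12 under dox. The groups were well apart, with a difference of 0.74 ± 0.07 (limma adjusted p = 0.00307). The call was kept when any 1 array was left out and lost without both arrays that stood apart (adjusted p = 0.0652). Jdp2, an AP-1 family repressor, differed by 0.50 ± 0.10 (limma adjusted p = 0.0607), but by 0.08 on a dimmer probe set that is not of a shared type. It passed in 5 of 15 alternatives, among them the one without withdrawal replicate 3 (0.60, adjusted p = 0.0271). Cebpb, the C/EBP partner best known beside Atf4, differed by 0.30 ± 0.08 (limma adjusted p = 0.113), and Cebpg, its usual partner at amino acid response elements, by -0.12 ± 0.06.

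Cebpa is also a gene of granulocyte development, and markers of other cell types moved with the groups. As a background to the marker counts, 1.2% of all genes passed upward and 1.57% downward. For genes brighter than the median probe set these shares were 1.89% and 2.33%. The marker lists are short, and none was tested against these shares. Of the early granulocyte markers 3 of 5 rose, and their summed level on the log2 scale was 16.13 to 16.15 after withdrawal, against 15.79 to 15.83 under dox. Of the mast cell and basophil markers 3 of 6 rose, with a summed level of 14.87 to 14.94 after withdrawal, against 14.27 to 14.31 under dox. Of the megakaryocyte markers 5 of 7 fell, with 10.71 to 10.82 after withdrawal, against 11.37 to 11.51 under dox. Of the macrophage markers 3 of 5 fell, with 12.68 to 12.74 after withdrawal, against 13.06 to 13.07 under dox. Of the red cell markers 1 of 4 fell, with 7.56 to 7.64 after withdrawal, against 8.33 to 8.45 under dox. Of the 8 progenitor markers Lmo2 and Cd34 fell and none rose, with 14.25 to 14.32 after withdrawal, against 14.28 to 14.35 under dox. The list's median difference was 0.02, and Spi1 (0.27), Kit (0.26) and Gata2 (0.21) were higher on all withdrawal arrays without passing. None of the T cell, B cell, fibroblast or endothelial markers passed. In such bulk samples a change in the share of cells of a type and a change in RNA per cell cannot be told apart, and the part of cell makeup in the values of the Atf4 genes was not tested.

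Other genes often listed as Atf4 targets moved in both directions, 1 up and 2 down of 24 measured, with a median difference of 0.06. These are 4.17% and 8.33% of the list, against 1.2% and 1.57% of all genes. Among genes above the median level the shares were 1.89% and 2.33%. The list was not tested against these shares. Ero1a, an oxidase that forms disulphide bonds in the endoplasmic reticulum, had 12.08, 12.07 and 12.08 after withdrawal, against 11.76, 11.68 and 11.72 under dox, and rose by 0.36 ± 0.06 (limma adjusted p = 0.0343). Slc38a2, an importer of neutral amino acids, had 10.55, 10.52 and 10.45 after withdrawal, against 10.90, 10.93 and 10.89 under dox, a difference of -0.40 ± 0.06 (limma adjusted p = 0.0275). Slc1a4, which carries alanine, serine and cysteine, had 5.86, 5.87 and 5.77 after withdrawal, against 6.21, 6.36 and 6.30 under dox, a difference of -0.46 ± 0.07 (limma adjusted p = 0.0241). In all 3 genes the groups were apart. None of the 3 calls was kept when any 1 array was left out, with adjusted p from 0.0761 to 0.149 for Ero1a, from 0.0585 to 0.126 for Slc38a2 and from 0.0611 to 0.114 for Slc1a4. On a dimmer probe set that is not of a shared type Slc1a4 differed by -0.10 (limma adjusted p = 0.730).

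Slc7a5, the light chain of the leucine transporter, differed by 0.45 ± 0.10 (limma adjusted p = 0.0700) and its heavy chain Slc3a2 by 0.21 ± 0.06 (limma adjusted p = 0.175). Both had groups that did not overlap, but neither passed. Slc7a11, the cystine importer, differed by -0.03 ± 0.06, Ddit4, an mTORC1 inhibitor, by -0.24 ± 0.07, and Nupr1 and Atf3, further stress genes, by -0.004 and -0.001.

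**Figure D5:**
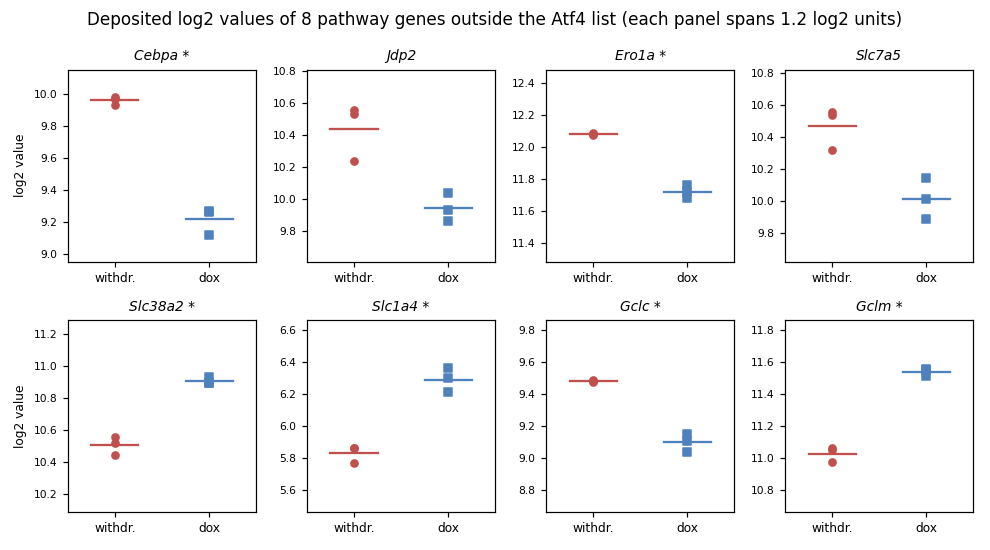
Each panel shows 1 gene outside the Atf4 list, with the deposited log2 value of the 3 withdrawal arrays (circles) and the 3 dox arrays (squares) and a bar at each group mean; panels span 1.2 log2 units and a star marks an adjusted p below 0.05. Slc38a2, Slc1a4 and Gclm lie lower after withdrawal and Cebpa, Ero1a and Gclc higher, while Jdp2 and Slc7a5 lie higher without passing.

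Of 9 further genes of cysteine and glutathione, 1 rose and 1 fell (11.1% each), against 1.2% and 1.57% of all genes. Both are subunits of the same enzyme, glutamate-cysteine ligase, which starts glutathione synthesis. Gclc, the catalytic subunit, had 9.49, 9.48 and 9.49 after withdrawal, against 9.10, 9.15 and 9.04 under dox, a difference of 0.39 ± 0.06 (limma adjusted p = 0.0309). Gclm, the modifier subunit, had 11.06, 11.05 and 10.97 after withdrawal, against 11.56, 11.55 and 11.52 under dox, a difference of -0.51 ± 0.06 (limma adjusted p = 0.00942). The groups were apart in both, in opposite directions. The call of Gclc was lost when any 1 array was left out (adjusted p from 0.0720 to 0.138). That of Gclm was lost without withdrawal replicate 2 (0.0515) or dox replicate 1 (0.0599), 2 (0.0604) or 3 (0.0543), and kept without withdrawal replicate 1 or 3. Cdo1, which oxidises cysteine, differed by 0.38 ± 0.09, and Chac2, a relative of Chac1, by -0.31 ± 0.07 in the opposite direction to it (limma adjusted p = 0.0918).

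In the remaining lists no gene passed. The 11 other folate, serine, glycine and methionine genes had a median difference of -0.09, with Ahcy (-0.21 ± 0.06) and Gcsh (-0.19 ± 0.07) the furthest from 0. The 10 other proline, asparagine and glutamate genes had a median of 0.08. Glul, glutamine synthetase, was at 7.12, 6.76 and 6.71 after withdrawal, against 7.37, 7.34 and 7.25 under dox, a difference of -0.46 ± 0.11 (limma adjusted p = 0.108). It passed in 4 of 14 alternatives, among them the one without withdrawal replicate 1 (adjusted p = 0.0271). Got2, the mitochondrial aspartate transaminase, differed by 0.23 ± 0.06. Of the 14 amino acid sensing genes, Sesn1 (-0.39 ± 0.08, limma adjusted p = 0.0616) and Sesn3 (-0.35 ± 0.08, limma adjusted p = 0.0991), relatives of Sesn2, came closest to the threshold. Of the 15 genes of the other arms of the unfolded protein response, 13 differed above 0, with a median of 0.07. All 15 lie above the median level, where 5733 of 11143 genes differed above 0. Whether they moved together was not tested. Edem1, which sends misfolded glycoproteins to degradation, differed by 0.32 ± 0.07 (limma adjusted p = 0.0636) and Creld2, a stress-induced protein of the endoplasmic reticulum, by 0.27 ± 0.06 (limma adjusted p = 0.0775), while Hspa5, the main chaperone of the endoplasmic reticulum, differed by 0.06 ± 0.07.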

How the data were processed

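Expression was measured on 6 mouse arrays from amplified, biotin-labelled cDNA, 3 after withdrawal and 3 under doxycycline, grouped by sample title. The deposited values are log2 expression values per probe set, made by the authors with RMA per the submitters' processing notes. Its version, chip definition and any filters were not found in those notes or in the labels. RMA corrects the background, forces the arrays onto a shared distribution and compresses differences of dim transcripts, so a general shift of most transcripts would be removed. Scanner files were not used here.

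Of 45101 rows, 64 manufacturer controls were left out. The platform annotation gave 1 gene symbol to 34945 probe sets, several to 932 and none to 9160. The test was limma (3.58.1, R 4.3.3; lmFit, then eBayes) on all 6 arrays without covariates, with 4 residual and 3.54 prior degrees of freedom, two-sided. Benjamini-Hochberg adjustment ran over 45037 probe sets at a threshold of 0.05. Steps were tested on simulated data. Promoter windows and their coordinates came from RefSeq tables of GRCm38.p6, matched by gene identifier. Figures were drawn with matplotlib 3.10.9.

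The members, lists and alternatives were chosen with earlier results of these data known. All Atf4 genes were named, as were list genes past the threshold, up to 6 further synthetases and up to 2 further genes per list with the largest differences. Other synthetases and list genes, all with values, were named after these were seen. The alternatives were each array left out, both arrays that stood apart left out, blocking on replicate number, testing bright probe sets only, median centring, a repeated quantile normalization, trend and robust options, array weights, averaging the probe sets of each gene, and probe sets not of a shared or cross-hybridising type. In the last of these, a gene whose probe set was left out was read from a dimmer one or lost. The type was taken only from the ending of the probe set name (_x_at, _s_at or _a_at), not from the genes it reads. The probe sets used for Atf5, Jdp2 and Slc1a4 end in _a_at. Whether the probe sets left out read other genes was not tested. No pseudocount was needed on log values.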

Additional observations from a re-analysis of the deposited data

How the results depend on the processing

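No difference that passed in any fit had a sign opposite to that of the value reported. Among the 15 alternatives, the sign changed for 7 of 19 Atf4 genes and 17 of 32 synthetases, all of them differences that did not pass. The count of Atf4 genes that rose, 1, was 0 without any 1 array, with the replicate number as a block, with probe sets not of a shared type (which leave 14 Atf4 genes and no probe set of Atf5) and on 4 arrays. It was 2 above the median level and 2 with trend and robust options, where 1 also fell. The synthetases had 1 fall above the median level, 1 with array weights, 1 with the mean of probe sets and 4 with trend and robust options, and no rise in any fit. With 1 array left out, the Atf4 median ran from 0.0014 to 0.0439 and that of synthetases from -0.0635 to -0.0025.

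Over all genes, rises and falls were 57 to 152 and 94 to 182 with 1 array left out, 63 and 107 with the replicate block, 498 and 580 above the median level, 634 and 732 with trend and robust options, 417 and 489 with array weights, and 22 and 55 on 4 arrays, where the median difference was 0.0031. Rises numbered 332 with the mean of probe sets. Of the 108 distinct genes on the pathway lists, 3 rose and 3 fell (2.78% each, against 1.2% and 1.57% of all genes). These became 1 to 2 and 0 to 2 with 1 array left out, 1 and 0 with the replicate block, 14 and 8 above the median level, 13 and 11 with trend and robust options, 9 and 7 with array weights, and 0 and 0 on 4 arrays. Rises numbered 5 after quantile normalization and 7 with the mean of probe sets. Fits on fewer arrays have fewer degrees of freedom; the other causes were not tested. Whether replicate numbers pair the samples cannot be decided here, because deviations from a mean of 3 arrays constrain one another. Same-numbered deviations correlated at -0.30, 0.46 and -0.03, and not every array correlated best with its own number. The highest value, 0.55, was between withdrawal replicate 3 and dox replicate 1, the arrays that stood apart. Differences of dim genes such as Cth and Vldlr are limited by their low signal.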
